A study of Homo sapiens with 18 samples.

Results

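The proteasome genes described here are 43 genes of the core particle, the regulatory base and lid, the activators and the assembly factors. They were taken by name from a list of gene symbols, and all 43 were among the 16786 genes tested, out of 35579 genes with a matched transcript. By role they were 7 core alpha subunits (PSMA1 to PSMA7), 7 core beta subunits (PSMB1 to PSMB7), 3 immunoproteasome subunits (PSMB8, PSMB9 and PSMB10), 6 base ATPases (PSMC1 to PSMC6), 4 other base subunits (PSMD1, PSMD2, PSMD4 and ADRM1), 8 lid subunits (PSMD3, PSMD6, PSMD7, PSMD8, PSMD11, PSMD12, PSMD13 and PSMD14), 4 assembly factors (PSMD5, PSMD9, PSMD10 and POMP) and 4 activators (PSME1 to PSME4). Polyadenylated RNA was sequenced from 18 cultures of U2OS, an established line of human osteosarcoma cells, with 3 cultures in each of 6 groups. The study followed the transcriptional effect of LY2835219 (abemaciclib, an inhibitor of the kinases CDK4 and CDK6) in U2OS cells that carry EWS-FLI1, the fusion transcription factor of Ewing sarcoma, which joins a part of EWSR1 to the DNA-binding part of FLI1. In order, the groups were cells with mCherry-EWS-FLI1 untreated, the same cells after 6 h and after 24 h in 7.5 µM LY2835219, and untreated cells with mCherry-EWS(YS37)-FLI1, with mCherry-EWS-FLI1mut and with the fluorescent protein mCherry alone. They are called EWS-FLI1, 6 h LY, 24 h LY, EWS(YS37)-FLI1, EWS-FLI1mut and mCherry below, and every group carried mCherry and was grown in DMEM with serum. The labels do not say what was changed in EWS-FLI1mut, whether a line was 1 clone or a pool, or whether untreated cells received a vehicle. The treatment protocol names exposures of 0, 3 and 6 h where the titles name 6 and 24 h, and the titles were followed. Replicates are titled as biological, but the labels name no second independently made line of any construct and do not say how replicates were derived. The p-values therefore measure only the spread between these cultures.

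The proteasome degrades proteins that carry ubiquitin chains. Its core is a barrel of stacked rings: the alpha subunits form the outer rings and their gate, and the beta subunits form the inner rings, in which PSMB5 has the chymotrypsin-like, PSMB6 the caspase-like and PSMB7 the trypsin-like activity. PSMB8, PSMB9 and PSMB10 are the interferon-inducible replacements of PSMB5, PSMB6 and PSMB7, and a core built with them makes more of the peptides that fit major histocompatibility complex class I. The regulatory particle has a base of ATPases that unfold the substrate, with PSMD1 and PSMD2 as scaffolds and PSMD4 and ADRM1 as ubiquitin receptors, and a lid with PSMD14, the enzyme that removes ubiquitin chains. POMP matures the core, and PSMD5, PSMD9 and PSMD10 chaperone the base. Other caps can open the core: the PSME1 and PSME2 complex, which interferon induces, PSME3 in the nucleus and PSME4, which is linked to the breakdown of acetylated histones. Subunit genes are known to rise together when proteasome activity is short, through NFE2L1, a transcription factor that NGLY1 and DDI2 process and that pairs with small MAF proteins.

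Each library held 16261034 to 20270637 estimated counts over 188753 transcripts, and 19738 to 20508 genes had at least 1 count. FLI1, the gene whose end is in the constructs, checked the labels: it had 265, 232 and 245 counts relative to the TMM-scaled size of the library (CPM) in EWS-FLI1, 400.1, 430.4 and 388 CPM in 6 h LY, 244, 241 and 225 CPM in 24 h LY, 1001, 987 and 1069 CPM in EWS(YS37)-FLI1, 664, 634 and 626 CPM in EWS-FLI1mut and 1.16, 0.426 and 0.0534 CPM in mCherry. The 3 constructs were therefore not at 1 level, with EWS(YS37)-FLI1 highest. Of the 10 osteoblast markers COL1A1 (903 to 3244 CPM) and SPARC (1444 to 3059 CPM) were high in every library, IBSP was at 0 in 15 libraries, SP7 in 10 and BGLAP in 3. The summed level of all 10 was 4896 to 5024 CPM in EWS-FLI1, 5329.7 to 6383 CPM in 6 h LY, 4404 to 5501 CPM in 24 h LY, 2422 to 2740.1 CPM in EWS(YS37)-FLI1, 3329 to 3599 CPM in EWS-FLI1mut and 3467 to 3672 CPM in mCherry. The 6 blood cell markers summed to 1.58 to 3.06 CPM, with CD3E at 0 in all 18 libraries. The 4 endothelial markers, none at 0 in all libraries, summed to 11.3 to 12.9 CPM in EWS-FLI1, 9.53 to 11.2 CPM in 6 h LY, 6.79 to 8.58 CPM in 24 h LY, 12.7 to 17.2 CPM in EWS(YS37)-FLI1, 3.30 to 5.32 CPM in EWS-FLI1mut and 5.54 to 5.82 CPM in mCherry. Of the 5 epithelial markers KRT8 and KRT18 made up most of a sum of 788 to 810.4 CPM in EWS-FLI1, 925 to 970.4 CPM in 6 h LY, 414 to 452 CPM in 24 h LY, 747 to 785 CPM in EWS(YS37)-FLI1, 758 to 778 CPM in EWS-FLI1mut and 497 to 546 CPM in mCherry. These sums moved with the groups, and their part in the results below was not tested. In bulk libraries such as these, fewer cells of a type and less RNA per cell cannot be told apart. Below, a gene is said to have risen or fallen in a comparison only where edgeR's quasi-likelihood test gave an adjusted p under 0.05, and a log2 fold change is the first named group over the second. Whether libraries overlap is read from the same values as the calls and adds no separate support. The share of all genes without overlap is not given here.

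Promoter windows are shown for the genes on which the results below turn: PSMD12 and PSMC4, which had the largest rises at 6 h of LY, PSME4, which had the largest fall there, and PSMB8 and PSMB10, the immunoproteasome genes with enough counts to follow. Each window runs from 250 bases before to 50 after the RefSeq start of transcription (GRCh38.p14), read 5′ to 3′ on the strand of the gene. The PSMD12 window is chr17:67366528-67366827 on the minus strand, the PSMC4 window chr19:39970915-39971214 on the plus strand, the PSME4 window chr2:53970944-53971243 on the minus strand, the PSMB8 window chr6:32843998-32844297 on the minus strand and the PSMB10 window chr16:67936801-67937100 on the minus strand. Capitals mark a match to TGACNNNGC, letters shared by antioxidant response elements, which NFE2L1 and NFE2L2 bind with small MAF proteins, in PSMD12, PSMC4 and PSME4. In PSMB8 and PSMB10 they mark a match to GAAANNGAAA, the repeat that interferon regulatory factors bind. For each gene the printed window was picked among those that hold its marked motif, so a match there was fixed in advance. PSMB8 had 2 windows, and the other genes shown had 1.
PSMD12: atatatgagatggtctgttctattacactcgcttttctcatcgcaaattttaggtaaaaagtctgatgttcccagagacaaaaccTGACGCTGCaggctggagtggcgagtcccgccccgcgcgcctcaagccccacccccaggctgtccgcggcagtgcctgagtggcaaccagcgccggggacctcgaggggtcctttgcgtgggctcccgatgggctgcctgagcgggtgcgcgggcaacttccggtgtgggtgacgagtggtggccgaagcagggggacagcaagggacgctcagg
PSMC4: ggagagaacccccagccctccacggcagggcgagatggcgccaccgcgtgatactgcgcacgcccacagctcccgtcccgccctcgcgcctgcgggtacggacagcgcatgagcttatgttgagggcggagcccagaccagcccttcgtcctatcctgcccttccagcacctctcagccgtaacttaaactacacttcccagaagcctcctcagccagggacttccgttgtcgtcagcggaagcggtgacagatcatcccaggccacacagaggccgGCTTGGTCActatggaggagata
PSME4: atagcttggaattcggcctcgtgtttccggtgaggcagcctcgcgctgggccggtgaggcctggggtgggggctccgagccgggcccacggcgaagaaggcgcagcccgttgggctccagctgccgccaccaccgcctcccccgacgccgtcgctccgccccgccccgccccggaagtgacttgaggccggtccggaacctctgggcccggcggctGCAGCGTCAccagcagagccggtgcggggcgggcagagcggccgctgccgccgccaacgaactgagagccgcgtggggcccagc
PSMB8: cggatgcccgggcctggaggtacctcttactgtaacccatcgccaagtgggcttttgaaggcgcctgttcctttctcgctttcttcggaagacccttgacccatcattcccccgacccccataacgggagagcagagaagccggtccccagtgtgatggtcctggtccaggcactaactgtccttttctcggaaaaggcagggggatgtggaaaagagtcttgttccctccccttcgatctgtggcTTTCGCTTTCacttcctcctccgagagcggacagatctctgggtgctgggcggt
PSMB10: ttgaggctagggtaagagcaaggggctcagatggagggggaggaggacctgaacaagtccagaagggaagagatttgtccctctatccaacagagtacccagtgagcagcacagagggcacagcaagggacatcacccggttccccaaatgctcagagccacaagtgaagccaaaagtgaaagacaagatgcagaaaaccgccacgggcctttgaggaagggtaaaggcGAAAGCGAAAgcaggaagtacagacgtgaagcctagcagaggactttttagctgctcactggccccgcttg
Counted as an offset from the first transcribed base, the leftmost letter of the match is at -165 in PSMD12, 27 in PSMC4, -34 in PSME4, -4 in PSMB8 and -21 in PSMB10. The matches in PSMC4, PSME4 and PSMB8 are on the opposite strand, so the printed letters are the reverse complement of the motif. Windows were found for 38 members, all but PSMA7, PSMB1, PSMB6, PSMB7 and PSMD4, and both strands of each were searched. TGACNNNGC was in 14 of the 38 and in 13.3% of all 35116 promoter windows, and it was in 9 of the 29 members with a window that rose at 6 h of LY (31.6% of all genes tested rose there) and in 5 of the 9 others. TGAGNNNGC, the other form of that element, was in 12 of the 38 and in 18.3% of all windows. CCAAT was in 19 of the 38 (34.6% of all windows). The ETS motif CCGGAAGT, the family to which FLI1 belongs, was in 9 of the 38 (4.14% of all), and the shorter CGGAAG, which lies within it, in 23 (19.5% of all). GGAAGGAA, the repeat that EWS-FLI1 is known to bind, was in 2 of the 38 (3.67% of all). GAAANNGAAA was in 6 of the 38 (3.57% of all). CACGTG was in 3 (7.26% of all), and none of the 38 held TGACGTCA (1.85% of all) or the heat shock motif GAANNTTCNNGAA (0.49% of all). A member counted if any of its windows matched, whereas the share of all windows counts each window alone, so the units differ. PSMA4 had 3 windows, and ADRM1, PSMA6, PSMB5, PSMB8, PSMC5 and PSMD2 had 2 each. A match says only that the letters are in the window.

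Levels between genes were compared in TPM, kallisto's abundance per length of transcript, as the mean of the 18 libraries. The core beta subunits had a median level of 251 TPM, the core alpha subunits 239.8 TPM and the base subunits other than ATPases 225 TPM. The base ATPases had a median of 163 TPM, the activators 138 TPM, the lid 105 TPM, the assembly factors 48.7 TPM and the 3 immunoproteasome subunits 36.8 TPM. PSMA7 was highest at 641 TPM, ahead of PSMC3 at 522, PSMA4 at 498, PSMB4 at 359 and PSMD2 at 353 TPM. The medians and this order count all transcripts of a gene, including those not annotated as protein coding. In untreated EWS-FLI1 such transcripts took 53.5% of the TPM of PSMC3, 56.2% of PSMA4, 16.5% of PSMA7, 4.14% of PSMB4 and 11.6% of PSMD2. An order by protein-coding transcripts alone is not given here. PSMB9 was lowest at 2.00 TPM, and the next were PSMD5 at 22.2, PSME4 at 30.4, PSMD10 at 32.0, PSMB10 at 36.8, PSMB2 at 45.7 and PSMB8 at 50.02 TPM. PSMD5, PSME4, PSMD10, PSMB10, PSMB2 and PSMB8 lay close together, and neighbours among them had overlapping ranges. The highest library was 1.19 times the lowest for PSMD13 and 1.22 times for PSMD3, against 2.11 times for PSME4, 2.12 for PSMB10, 2.16 for PSMD11 and 17.2 for PSMB9, which had 403.7 estimated counts in all 18 libraries together. These levels include the counts of copy transcripts, which carry IDs outside GENCODE 29 but have the same length and the same counts in every library as a transcript of the gene. With copies added PSMB8 had 5.82 times its own counts, PSMC4 2.00 times, PSME1 2.00 times, PSME2 2.00 times, PSMB9 1.07 times and PSMB3 1.01 times, and the other 37 members had none.

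**Figure D1:**
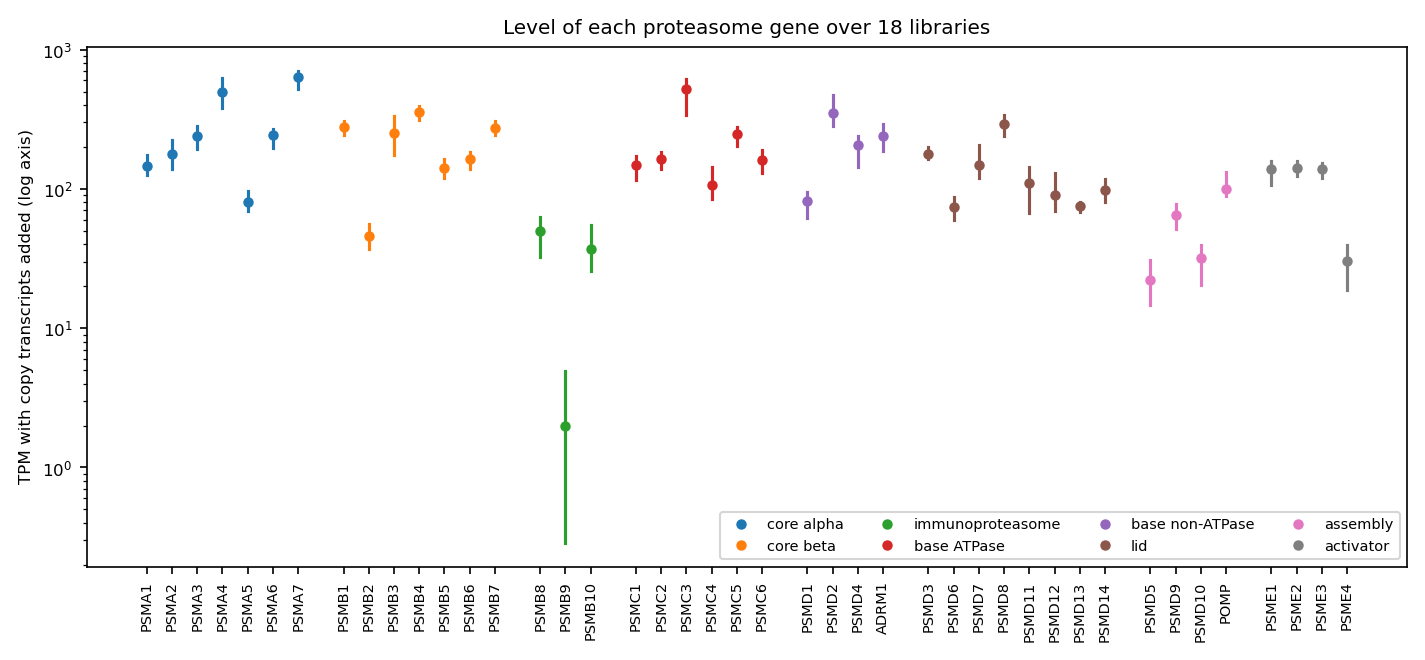
Mean level of each proteasome gene over the 18 libraries in TPM, with copy transcripts included, on a log axis, grouped and coloured by role; each bar is the range over libraries. The immunoproteasome subunits PSMB8 (50.02 TPM), PSMB10 (36.8 TPM) and PSMB9 (2.00 TPM) sit below most core subunits, and PSMA7 (640.5 TPM) is highest.

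The immunoproteasome subunits were minor beside the constitutive subunits whose places they take. In TPM, PSMB10 was 0.136 (range 0.0929 to 0.210) of PSMB7 as the mean of 18 libraries, and PSMB9 was 0.0117 (range 0.00193 to 0.0277) of PSMB6. PSMB8 was 0.0594 (range 0.0442 to 0.0862) of PSMB5 with its own transcripts and 0.356 (range 0.254 to 0.521) with the copies, so the size of that ratio rests on how the copies are counted. PSMB8 (ENSG00000204264, chr6:32840717-32844703, minus strand) and PSMB9 (ENSG00000240065, chr6:32844136-32859585, plus strand) overlap at their starts on opposite strands of hg38, and whether the counting used strand is not given in the sources used here. PSMB10 (ENSG00000205220, chr16:67934502-67937087, minus strand) had 77.9% of the 31-base stretches of its highest transcript in common with AC040162.1, so its counts are uncertain. That transcript, PSMB10-203, is annotated as retaining an intron and carried 50.3% ± 5.87 of the TPM of PSMB10 in EWS-FLI1, 39.7% ± 6.34 in 6 h LY and 55.3% ± 5.29 in 24 h LY (SD, n = 3 each).

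Summed over the 43 genes, the level was highest after 6 h of LY on the scale that uses TMM factors, and that order changed in TPM. In CPM the sum was 5149, 5416 and 5346 in EWS-FLI1, 6907, 7057 and 7190.0 in 6 h LY, 5227, 5254 and 5318 in 24 h LY, 5992, 6118 and 6193 in EWS(YS37)-FLI1, 5513, 5516 and 5488 in EWS-FLI1mut and 5872, 5843 and 5884 in mCherry. The 3 libraries of 6 h LY were above the other 15, EWS(YS37)-FLI1 came next, and EWS-FLI1 with and without 24 h of LY was lowest. In TPM the sum was 7112 ± 91.2 in EWS-FLI1, 7398 ± 199.7 in 6 h LY, 6579 ± 72.0 in 24 h LY, 7733 ± 134 in EWS(YS37)-FLI1, 7599.5 ± 133 in EWS-FLI1mut and 7751 ± 105 in mCherry (SD, n = 3 each). On that scale 6 h LY was still above EWS-FLI1 in every library, but below mCherry in mean.

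**Figure D2:**
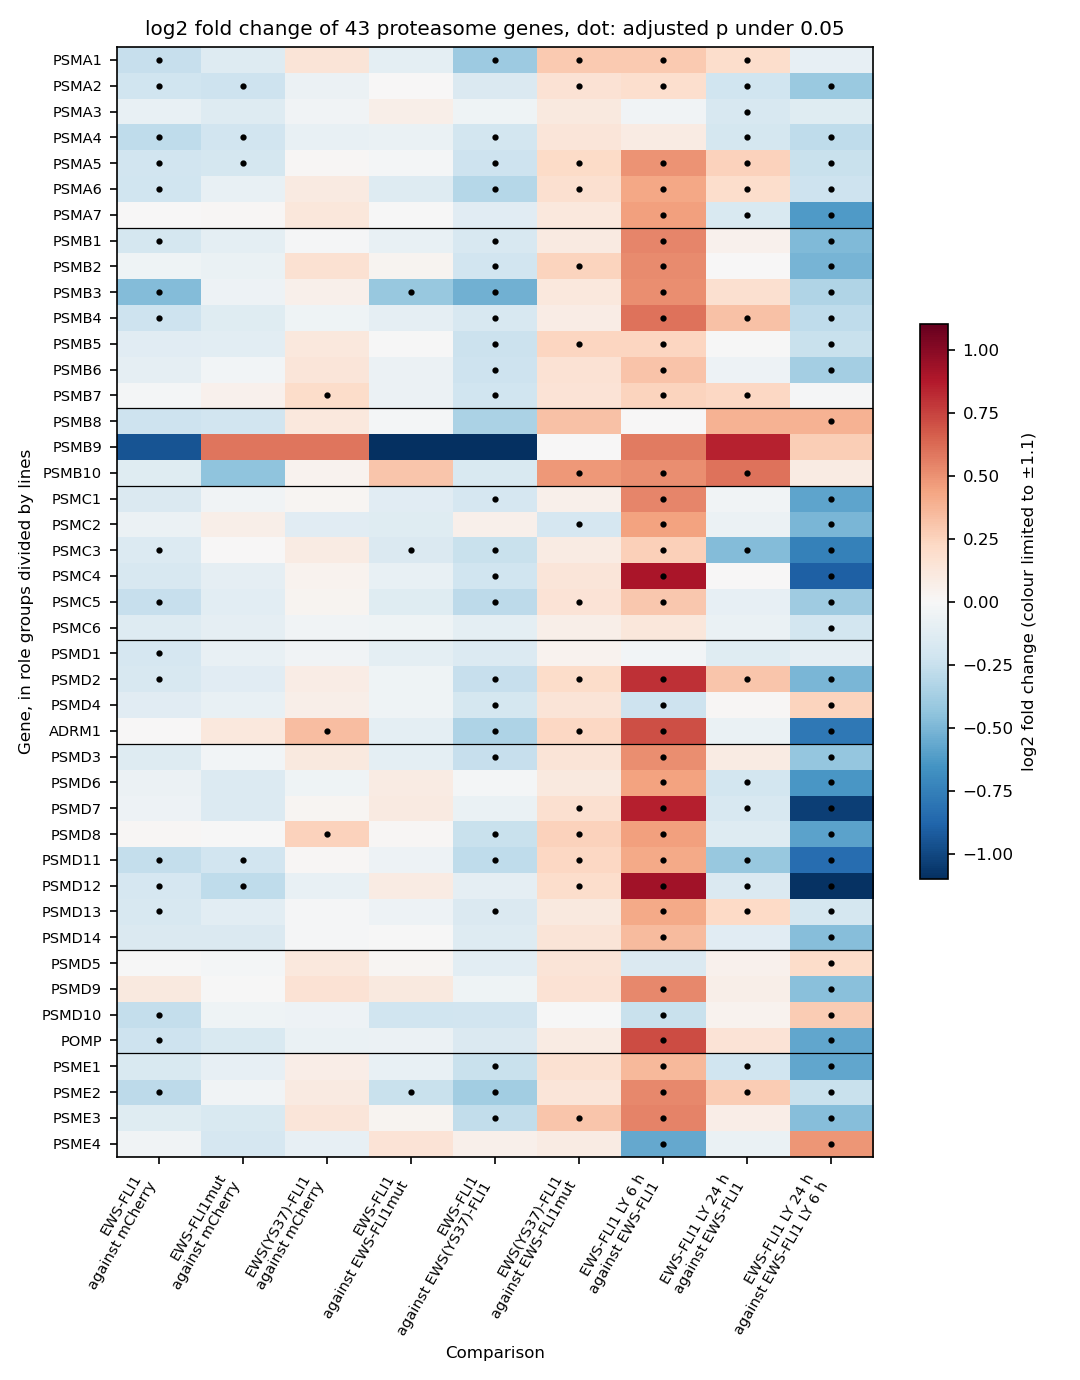
Log2 fold change of each of the 43 proteasome genes in each of the 9 comparisons (edgeR on TMM-scaled counts), genes down the page by role and comparisons across; red is higher and blue lower in the first named group, and marked cells passed an adjusted p of 0.05. At 6 h of LY 33 genes are marked as higher and 3 as lower (12 and 11 in TPM), and in 24 h LY against 6 h LY 32 are marked as lower.

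After 6 h of LY, 33 of the 43 proteasome genes rose and 3 fell relative to untreated EWS-FLI1 cells. All 8 lid subunits and all 7 constitutive beta subunits rose, and so did 5 of 6 ATPases and 5 of 7 alpha subunits, though 8 of the 33 rises turned sign in TPM. The rises were modest, with a median log2 fold change of 0.44 over the 43 genes against -0.02 over all genes tested, and the largest were in PSMD12, PSMC4 and PSMD7. PSME4, the ubiquitin receptor PSMD4 and the chaperone PSMD10 fell. The call was an adjusted p under 0.05 in edgeR's quasi-likelihood test over all genes, and the 33 rising members are 76.7% of the members, against 31.6% of all genes tested that rose. The 3 falling members are 6.98%, against 33.3% of all genes. The 6 h LY libraries had 6.14% ± 0.146 of their counts on mitochondrial genes and the untreated EWS-FLI1 libraries 4.80% ± 0.277 (SD, n = 3 each). FLI1 was higher in 6 h LY by 0.72 ± 0.09 (SE, adjusted p = 1.34e-07) on the log2 scale, and the part of either in the result was not tested.

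PSMD12, a lid subunit (ENSG00000197170, chr17:67337916-67366627, minus strand), had 152, 159 and 164 CPM in 6 h LY, against 85.1, 83.9 and 80.7 CPM in untreated EWS-FLI1 (log2 fold change 0.93 ± 0.06 (SE), adjusted p = 1e-11). PSMC4, a base ATPase (ENSG00000013275, chr19:39971005-39981441, plus strand), had 91.4, 86.3 and 83.8 CPM in 6 h LY, against 43.9, 50.2 and 46.3 CPM in untreated EWS-FLI1 (log2 fold change 0.90 ± 0.06 (SE), adjusted p = 1.97e-11). PSMD7, the lid subunit that pairs with PSMD14 (ENSG00000103035, chr16:74296775-74306288, plus strand), had 187, 191 and 199.9 CPM in 6 h LY, against 107, 109 and 103 CPM in untreated EWS-FLI1 (log2 fold change 0.85 ± 0.05 (SE), adjusted p = 2.36e-12). In all 3 genes every 6 h LY library was above every untreated library, with a wide gap. The promoter windows of PSMD12 and PSMC4 printed above hold TGACNNNGC, and that of PSMD7 does not. Other lid subunits rose by less, between 0.34 for the deubiquitinase PSMD14, which turned in TPM, and 0.51 for PSMD3 on the log2 scale. In the base, the scaffold PSMD2 rose by 0.80 ± 0.05 (SE, adjusted p = 1.3e-12) and the ubiquitin receptor ADRM1 by 0.71 ± 0.06 (SE, adjusted p = 1.72e-10), while the other scaffold, PSMD1, was not called at -0.03 (adjusted p = 0.693). The ATPases PSMC1, PSMC2, PSMC3 and PSMC5 rose by 0.54, 0.44, 0.26 and 0.30, the values of PSMC3 and PSMC5 turning in TPM, and PSMC6 was not called at 0.13 (adjusted p = 0.0904).

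In the core, the beta subunits rose by 0.24 (PSMB7) to 0.60 (PSMB4) on the log2 scale. PSMB5 had 123, 121 and 124 CPM in 6 h LY, against 97.5, 108 and 106 CPM in untreated EWS-FLI1 (log2 fold change 0.24 ± 0.06 (SE), adjusted p = 0.00104). PSMB6 had 83.7, 82.0 and 82.7 CPM in 6 h LY, against 58.7, 75.2 and 65.9 CPM in untreated EWS-FLI1 (log2 fold change 0.31 ± 0.08 (SE), adjusted p = 0.0016). PSMB7 had 146, 159 and 149.9 CPM in 6 h LY, against 120.5, 132 and 131 CPM in untreated EWS-FLI1 (log2 fold change 0.24 ± 0.06 (SE), adjusted p = 0.00105). The libraries of the 2 groups did not overlap in these 3 catalytic subunits, but the direction of all 3 turned in TPM and that of PSMB5 and PSMB7 turned without scaling factors, as given with the scales below. Among the alpha subunits PSMA5 rose most (0.49 ± 0.05 (SE, adjusted p = 1.34e-08)), and PSMA3, at -0.04 (adjusted p = 0.654), and PSMA4, at 0.09 (adjusted p = 0.202), were not called. Among the assembly factors the core maturation factor POMP rose by 0.72 ± 0.08 (SE, adjusted p = 2.2e-08) and the base chaperone PSMD9 by 0.53 ± 0.09 (SE, adjusted p = 2.57e-05), and PSMD5 was not called at -0.16 (adjusted p = 0.111).

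The 3 genes that fell at 6 h are each outside the core. PSME4, the activator (ENSG00000068878, chr2:53864067-53970840, minus strand), had 108, 110.2 and 108 CPM in 6 h LY, against 178, 159 and 143 CPM in untreated EWS-FLI1 (log2 fold change -0.56 ± 0.07 (SE), adjusted p = 1.23e-07). PSMD4, a ubiquitin receptor of the base (ENSG00000159352, chr1:151254703-151267479, plus strand), had 139.9, 152 and 144 CPM in 6 h LY, against 151, 183 and 178 CPM in untreated EWS-FLI1 (log2 fold change -0.23 ± 0.06 (SE), adjusted p = 0.00274). PSMD10, a base chaperone (ENSG00000101843, chrX:108084207-108091618, minus strand), had 18.9, 21.0 and 19.9 CPM in 6 h LY, against 24.1, 23.6 and 23.2 CPM in untreated EWS-FLI1 (log2 fold change -0.25 ± 0.10 (SE), adjusted p = 0.0287). The PSME4 and PSMD10 libraries did not overlap between the groups, and those of PSMD4 did. The PSMD10 call was lost without 6 h LY replicate 1 (-0.21, adjusted p = 0.0977), without 6 h LY replicate 3 (-0.25, adjusted p = 0.0526) and without EWS-FLI1 replicate 1 (-0.23, adjusted p = 0.0677). In contrast to PSME4, the other activators rose, PSME1 by 0.35 (turning in TPM), PSME2 by 0.53 and PSME3 by 0.55.

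**Figure D3:**
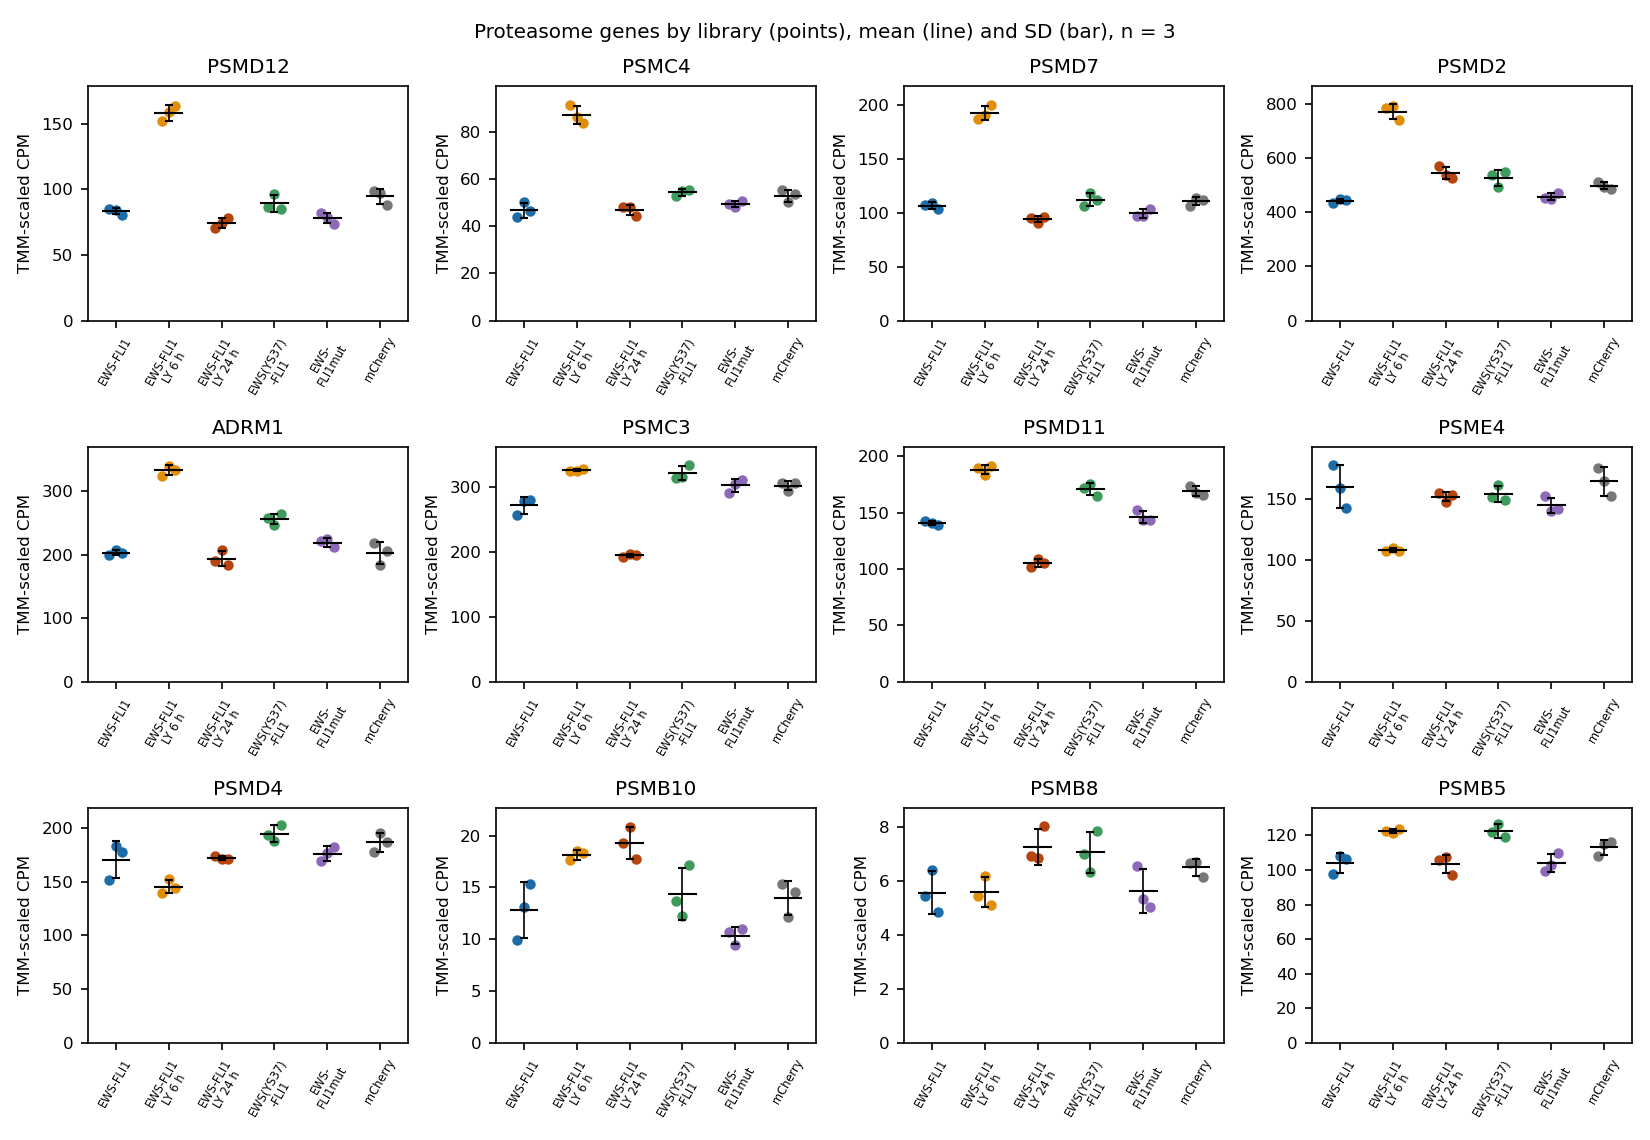
CPM (TMM-scaled) of 12 proteasome genes in each of the 18 libraries, 1 panel a gene, groups along the x axis. Points are libraries, horizontal lines the mean of 3 and bars the SD. PSMD12, PSMC4 and PSMD7 are highest in the 3 libraries of 6 h LY, and PSME4 is lower there than in every untreated EWS-FLI1 library.

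How large the 6 h change was depended on the scale. With TMM factors 33 members rose and 3 fell, with length offsets 30 and 3, without scaling factors 22 and 7, and in limma on log2(TPM + 1) 12 and 11. Of the 16786 genes tested, 5304 rose and 5586 fell with TMM factors, and 4312 and 4767 with length offsets. Without scaling factors 3535 of them rose and 7450 fell, and in TPM 2480 and 6974. The median of all genes moved with the scale: it was -0.02 with TMM, -0.04 with length offsets, -0.27 without factors and -0.26 in TPM. Relative to that median, the median of the 43 genes was higher by 0.46 with TMM, 0.46 without factors, 0.43 with length offsets and 0.33 in TPM. On all 6 scales tried (these 4, RLE factors and counts of protein-coding transcripts only) 12 genes rose: PSMA5, PSMB1, PSMB4, PSMC1, PSMC4, PSMD2, ADRM1, PSMD3, PSMD7, PSMD12, POMP and PSME3. PSMD4 and PSME4 fell on all 6. In TPM the log2 fold change was 0.60 (adjusted p = 6.22e-07) for PSMD12, 0.49 (adjusted p = 1.19e-05) for PSMC4, 0.52 (adjusted p = 1.36e-05) for PSMD7 and -0.78 (adjusted p = 2.16e-06) for PSME4. Of the 36 called members 8 turned sign in TPM, all from a rise: PSMA2, PSMB5, PSMB6, PSMB7, PSMC3, PSMC5, PSMD14 and PSME1. Of these, PSMA2, at -0.20 (adjusted p = 0.0112), PSMB5, at -0.17 (adjusted p = 0.0107), and PSMC3, at -0.14 (adjusted p = 0.0123), were called as falling in TPM. The other 5 were not called in TPM, among them PSMB6 at -0.04 (adjusted p = 0.66) and PSMB7 at -0.01 (adjusted p = 0.923). Without scaling factors PSMA2, PSMB5 and PSMB7 turned, none of them called there, and PSMA1 turned with protein-coding transcripts only.

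**Figure D4:**
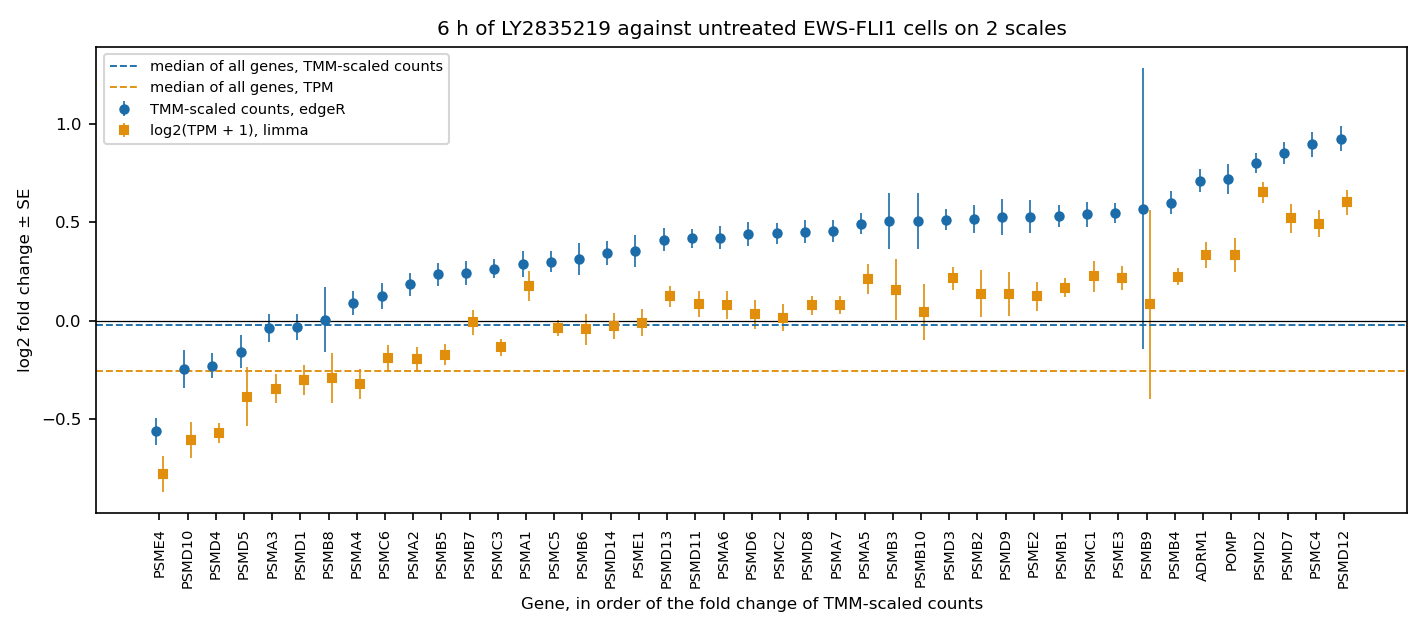
Log2 fold change of each proteasome gene in 6 h LY against untreated EWS-FLI1, with TMM factors and in TPM. Lines are the median of all genes on each scale. The set lies lower in TPM, where 12 genes rise at an adjusted p under 0.05. Of the called genes 8 change sign there, among them PSMA2, PSMB5 and PSMB7. PSMD12, PSMC4 and PSMD7 stay above 0 and PSME4 and PSMD4 below it.

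In some members, transcripts that are not annotated as protein coding moved apart from the coding ones at 6 h of LY. With protein-coding transcripts alone 32 members rose and 2 fell, so most of the calls at 6 h did not need the others. Of the 14771 genes tested that way, 4702 rose and 4987 fell. For each gene, counts were split into protein-coding and other transcripts (retained intron, nonsense-mediated decay and processed types), and the difference between the 2 classes was tested over 9340 genes, 39 of them members. At 6 h of LY the other class rose relative to the coding class in 11 of the 39 members and fell in none, against 17.8% of all genes tested for a relative rise and 5.5% for a relative fall. The median difference was 0.33 log2 units in the members and 0.30 in all genes, so the members' shift was close to that of all genes. PSMD2 had log2 fold changes of 2.71 in the other class against 0.63 in the coding class (adjusted p of the difference = 2.27e-10). PSMD2-204, a transcript annotated for nonsense-mediated decay, had 55.9, 54.2 and 51.2 TPM in 6 h LY, against 4.59, 3.56 and 4.68 TPM in untreated EWS-FLI1. PSMA1 had 2.45 against -0.11 in its coding class (adjusted p of the difference = 8.64e-11), and its retained-intron transcript PSMA1-208 had 11.9, 21.0 and 27.4 TPM in 6 h LY, against 4.43, 1.18 and 3.53 TPM in untreated EWS-FLI1. In PSMA1 the sum over transcripts rose while its coding class had a value below 0. The other 9 were PSMA6, PSMB4, PSMC5, PSMC6, PSMD1, PSMD3, PSMD4, PSMD6 and PSMD13. In PSMD12, PSMC4 and PSMD7 the coding class alone gave 0.92 (adjusted p = 1.12e-06), 0.93 (adjusted p = 6.56e-10) and 0.90 (adjusted p = 1.69e-11). Most of the TPM of PSMD12 was in the other class, 77.0% in untreated EWS-FLI1 and 77.4% in 6 h LY. That share in untreated EWS-FLI1 was 9.56% for PSMC4 and 6.59% for PSMD7.

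By 24 h, 6 of the 39 members had a relative rise of the other class and none a relative fall, against 5.09% and 0.942% of all genes. Those 6 were PSMA1, PSMA3, PSMC5, PSMC6, PSMD2 and PSME2. Other transcripts took 15.1% ± 2.67 of the TPM of PSMA1 in untreated EWS-FLI1, 44.4% ± 3.49 after 6 h and 23.3% ± 0.812 after 24 h of LY (SD, n = 3 each). Their share in PSMD2 was 11.6% ± 3.65 untreated, 32.9% ± 2.19 after 6 h and 19.0% ± 3.81 after 24 h. Over all members the share was 17.6% ± 0.731 untreated, 20.5% ± 0.119 after 6 h and 17.7% ± 0.823 after 24 h, beside 13.7% ± 0.307, 14.1% ± 0.168 and 14.0% ± 0.562 over all protein-coding genes at the same times. Between 24 h and 6 h of LY the other class was relatively higher in 2 members and lower in 7, against 6.01% and 11.1% of all genes. Among the untreated lines the only member with a split was PSMD11 in EWS(YS37)-FLI1 against mCherry, at -0.68 against 0.10 in the coding class, where 0.118% of all genes had a relative rise and 0.128% a relative fall.

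**Figure D5:**
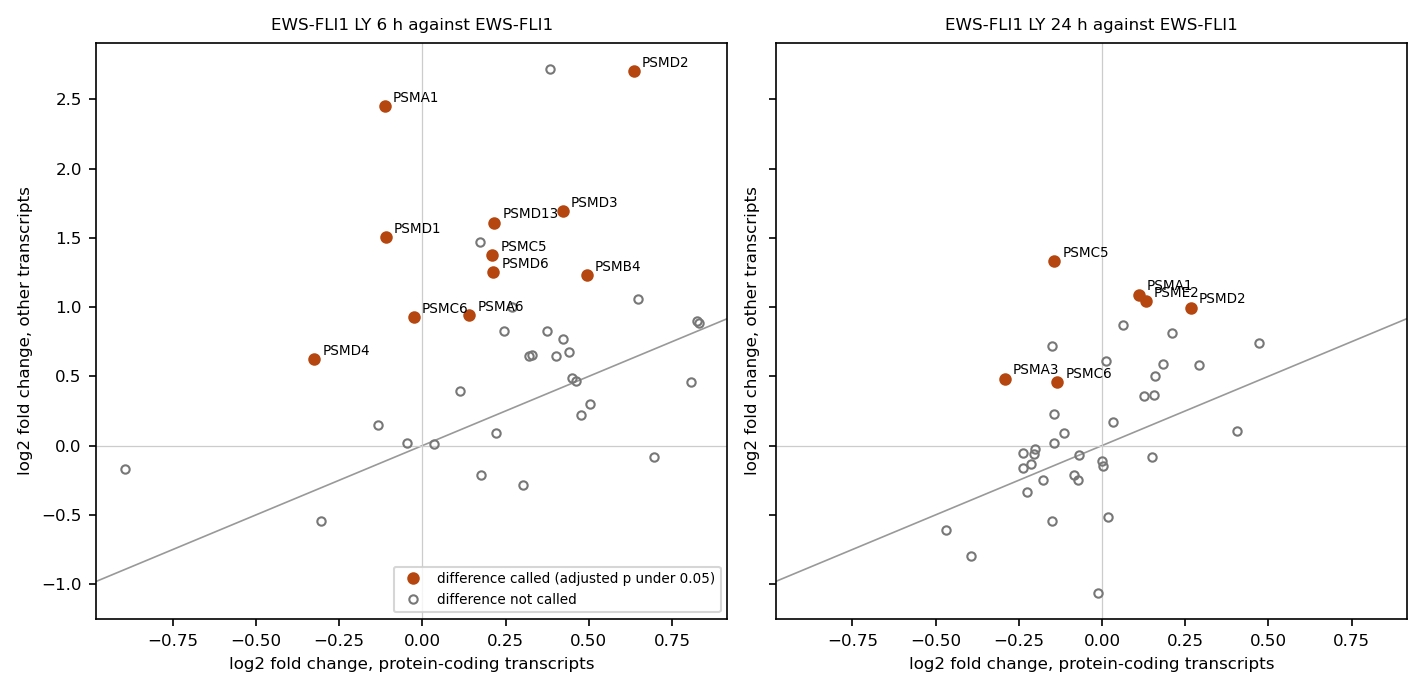
Log2 fold change of protein-coding transcripts (x axis) and of other transcripts (y axis) of the 39 proteasome genes tested, in 6 h LY (first panel) and 24 h LY (second panel) against untreated EWS-FLI1; filled points have an adjusted p of the difference under 0.05. In the 6 h panel the 11 filled points lie above the diagonal, with PSMD2 and PSMA1 farthest from it, and in the 24 h panel 6 do.

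After 24 h of LY, the proteasome genes were no longer shifted as a set: 9 rose and 10 fell relative to untreated EWS-FLI1, and the median log2 fold change was 0.00 over the members and 0.03 over all genes tested. The rising 9 (20.9% of members, against 23.3% of all genes) were PSMA1, PSMA5, PSMA6, PSMB4, PSMB7, PSMB10, PSMD2, PSMD13 and PSME2. The falling 10 (23.3% of members, against 24.6% of all genes) were PSMA2, PSMA3, PSMA4, PSMA7, PSMC3, PSMD6, PSMD7, PSMD11, PSMD12 and PSME1. Both shares were close to those of all genes. The 24 h LY libraries had 6.16% ± 0.380 of their counts on mitochondrial genes, against 4.80% ± 0.277 in untreated EWS-FLI1 (SD, n = 3 each), and the part of this in the calls was not tested.

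PSMB10, the trypsin-like immunoproteasome subunit, had 19.3, 20.8 and 17.7 CPM in 24 h LY, against 9.91, 13.1 and 15.3 CPM in untreated EWS-FLI1 (log2 fold change 0.59 ± 0.14 (SE), adjusted p = 0.00125). PSMB4, a structural beta subunit, had 192, 208 and 198 CPM in 24 h LY, against 149, 162 and 167 CPM in untreated EWS-FLI1 (log2 fold change 0.32 ± 0.06 (SE), adjusted p = 0.000113). PSMD2 had 572, 536 and 527 CPM in 24 h LY, against 434, 448 and 444 CPM in untreated EWS-FLI1 (log2 fold change 0.30 ± 0.05 (SE), adjusted p = 2.18e-05). These were the largest rises, and no library of 24 h LY overlapped the untreated libraries. The largest falls were in 2 subunits of the regulatory particle and 1 alpha subunit. PSMC3, a base ATPase, had 192, 197 and 195 CPM in 24 h LY, against 256, 278 and 280.4 CPM in untreated EWS-FLI1 (log2 fold change -0.48 ± 0.05 (SE), adjusted p = 1.55e-08). PSMD11, a lid subunit that ties the lid to the core (ENSG00000108671, chr17:32444261-32483318, plus strand), had 102, 109 and 105 CPM in 24 h LY, against 142, 141 and 139 CPM in untreated EWS-FLI1 (log2 fold change -0.42 ± 0.05 (SE), adjusted p = 2.32e-07). PSMA2 had 131, 137 and 151 CPM in 24 h LY, against 161, 164 and 163 CPM in untreated EWS-FLI1 (log2 fold change -0.22 ± 0.06 (SE), adjusted p = 0.00407). The groups did not overlap in these 3 genes either, while PSMA3 had overlapping libraries though it was called. PSMA5, PSMB4, PSMB10, PSMD2 and PSMD13 rose, and PSMA2, PSMA7, PSMC3, PSMD6 and PSMD11 fell, on all 6 scales. Without 24 h LY replicate 1 the number of falling members was 6, and in TPM 5 rose and 15 fell. Among all 16786 genes tested, 2271 rose and 3728 fell in TPM.

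Set beside 6 h, the 24 h libraries had lower levels of most proteasome genes: 32 of 43 fell between 6 h and 24 h of LY (74.4%, against 30.3% of all genes) and 5 rose (11.6%, against 32.6%). The median log2 fold change of the members was -0.39, against 0.05 over all genes. The 3 comparisons among the LY times share libraries. PSMD12 had 70.5, 74.3 and 78.6 CPM in 24 h LY, against 152, 159 and 164 CPM in 6 h LY (log2 fold change -1.09 ± 0.06 (SE), adjusted p = 9.21e-13). PSMD7 had 95.1, 90.8 and 96.6 CPM in 24 h LY, against 187, 191 and 199.9 CPM in 6 h LY (log2 fold change -1.03 ± 0.06 (SE), adjusted p = 1.43e-13). PSMC4 had 48.2, 48.1 and 44.2 CPM in 24 h LY, against 91.4, 86.3 and 83.8 CPM in 6 h LY (log2 fold change -0.90 ± 0.06 (SE), adjusted p = 2.89e-11). All 3 had no overlap between the times, and relative to untreated cells the 24 h values were -0.16 (adjusted p = 0.0455) for PSMD12, -0.18 (adjusted p = 0.0102) for PSMD7 and 0.00 (adjusted p = 0.988) for PSMC4. The falls between 6 h and 24 h ran from -0.19 (PSMD13) to -1.09 (PSMD12) on the log2 scale and took in all 8 lid subunits, all 6 ATPases and 6 of the 7 constitutive beta subunits, with PSMB7 not called at -0.02 (adjusted p = 0.823). Of these falls, those of PSMA5, PSMA6, PSMB5, PSMC6, PSMD13 and PSME2 turned sign both in TPM and without scaling factors, and that of PSMB4 in TPM, with none of the 7 called as rising there.

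The genes that rose between 6 h and 24 h were PSME4, PSMB8, PSMD10, PSMD4 and PSMD5. PSME4 had 155, 148 and 153 CPM in 24 h LY, against 108, 110.2 and 108 CPM in 6 h LY (log2 fold change 0.49 ± 0.07 (SE), adjusted p = 1.34e-06). PSMB8 had 6.90, 6.82 and 8.03 CPM in 24 h LY, against 5.44, 6.19 and 5.09 CPM in 6 h LY (log2 fold change 0.38 ± 0.16 (SE), adjusted p = 0.0474). PSMD10 had 21.2, 25.1 and 26.4 CPM in 24 h LY, against 18.9, 21.0 and 19.9 CPM in 6 h LY (log2 fold change 0.28 ± 0.10 (SE), adjusted p = 0.0132). The times did not overlap in these genes, and PSMD4 (0.24) and PSMD5 (0.20) rose by less. The PSMB8 call was lost without any 1 of 24 h LY replicate 1 (0.42, adjusted p = 0.0579), replicate 2 (0.41, adjusted p = 0.0578) or replicate 3 (0.30, adjusted p = 0.165), and without 6 h LY replicate 1 (0.36, adjusted p = 0.11) or replicate 3 (0.32, adjusted p = 0.152). Without 24 h LY replicate 2, 24 h LY replicate 3 or 6 h LY replicate 1, 2 members rose, and the PSMD10 call was among those lost (0.25, adjusted p = 0.0553; 0.22, adjusted p = 0.0778; 0.24, adjusted p = 0.0642). On all 6 scales PSME4, PSMD4 and PSMD10 rose and 19 members fell, among them PSMD12, PSMD7, PSMC4, PSMD11 and PSMC3.

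Of the 9 comparisons, PSMB10 was called in 3, PSMB8 in 1 and PSMB9 in 0. In 24 h LY against untreated EWS-FLI1 the 3 immunoproteasome subunits had a median log2 fold change of 0.59 (range 0.39 to 0.84), against -0.02 (range -0.48 to 0.32) in the other 40 members. In 24 h LY against 6 h LY their median was 0.27 (range 0.09 to 0.38), against -0.41 (range -1.09 to 0.49) in the other 40, and PSMB10 turned there with protein-coding transcripts only. In 6 h LY against untreated EWS-FLI1 it was 0.51 (range 0.00 to 0.57), against 0.43 in the other 40, and PSMB8 turned there without scaling factors, with length offsets and in TPM. With TMM factors all 3 values at 24 h were above the largest of the other 40, and 1 of the 3 was called. The largest, 0.84, was that of PSMB9, which had few counts and overlapping libraries there. PSMB9 also gave the median of 0.27 in 24 h LY against 6 h LY, where its libraries overlapped too. PSMB8 had 5.42, 6.40 and 4.83 CPM in EWS-FLI1, 5.44, 6.19 and 5.09 CPM in 6 h LY, 6.90, 6.82 and 8.03 CPM in 24 h LY, 6.99, 6.32 and 7.84 CPM in EWS(YS37)-FLI1, 6.55, 5.31 and 5.01 CPM in EWS-FLI1mut and 6.64, 6.70 and 6.14 CPM in mCherry. Its 24 h libraries were above the untreated EWS-FLI1 libraries, at 0.39 (adjusted p = 0.0538), and with the copies added the same difference was 0.38 (adjusted p = 0.011). PSMB9 had 0.153, 0.840 and 0.806 CPM in EWS-FLI1, 0.917, 0.758 and 0.993 CPM in 6 h LY, 0.265, 2.31 and 0.674 CPM in 24 h LY, 1.65, 2.74 and 0.865 CPM in EWS(YS37)-FLI1, 2.70, 1.598 and 0.921 CPM in EWS-FLI1mut and 1.37, 0.305 and 1.76 CPM in mCherry. With 3.06 to 53.9 estimated counts a library, it was called in no comparison. Its EWS-FLI1 libraries were all below those of EWS(YS37)-FLI1 (-1.54 ± 0.67 (SE, adjusted p = 0.0876) on the log2 scale) and those of EWS-FLI1mut (-1.53 ± 0.67 (SE, adjusted p = 0.129)), by a narrow margin at the nearest libraries, and its libraries overlapped in the other 7 comparisons. PSMB10 had 9.91, 13.1 and 15.3 CPM in EWS-FLI1, 17.6, 18.5 and 18.4 CPM in 6 h LY, 19.3, 20.8 and 17.7 CPM in 24 h LY, 13.7, 12.3 and 17.2 CPM in EWS(YS37)-FLI1, 10.6, 9.43 and 10.9 CPM in EWS-FLI1mut and 15.3, 12.2 and 14.5 CPM in mCherry. It rose at 6 h of LY by 0.51 ± 0.14 (SE, adjusted p = 0.00334) with TMM factors, but was not called with length offsets, at 0.33 (adjusted p = 0.118), without scaling factors, at 0.26 (adjusted p = 0.101), or in TPM, at 0.04 (adjusted p = 0.813), and the 24 h rise held on all 6 scales.

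Their constitutive counterparts kept a higher and steadier level. PSMB5 had 137, 149 and 142 TPM in EWS-FLI1, 128, 123 and 128 TPM in 6 h LY, 132, 132 and 120.5 TPM in 24 h LY, 155, 165 and 147 TPM in EWS(YS37)-FLI1, 140.3, 145 and 151 TPM in EWS-FLI1mut and 146, 149 and 148 TPM in mCherry. PSMB6 had 149, 181 and 154 TPM in EWS-FLI1, 159, 152 and 157 TPM in 6 h LY, 143, 155 and 138 TPM in 24 h LY, 166, 183 and 185 TPM in EWS(YS37)-FLI1, 177, 185 and 153 TPM in EWS-FLI1mut and 177, 165 and 161 TPM in mCherry. PSMB7 had 249.5, 260.2 and 256 TPM in EWS-FLI1, 245, 258 and 258 TPM in 6 h LY, 297, 261 and 296 TPM in 24 h LY, 309, 293 and 286 TPM in EWS(YS37)-FLI1, 267, 302 and 269 TPM in EWS-FLI1mut and 244, 284 and 261 TPM in mCherry. Each was above the subunit that replaces it in all 18 libraries. As a ratio in TPM, PSMB10 over PSMB7 was 0.131 ± 0.0270 in EWS-FLI1, 0.134 ± 0.00512 in 6 h LY, 0.176 ± 0.0289 in 24 h LY, 0.115 ± 0.0224 in EWS(YS37)-FLI1, 0.106 ± 0.0121 in EWS-FLI1mut and 0.153 ± 0.0329 in mCherry (SD, n = 3 each). PSMB8 over PSMB5, with copies, was 0.331 ± 0.0399 in EWS-FLI1, 0.291 ± 0.0420 in 6 h LY, 0.452 ± 0.0651 in 24 h LY, 0.364 ± 0.0498 in EWS(YS37)-FLI1, 0.345 ± 0.0640 in EWS-FLI1mut and 0.353 ± 0.0138 in mCherry (SD, n = 3 each). Both ratios had their highest mean in 24 h LY. The 24 h LY libraries overlapped those of mCherry in the first ratio and those of EWS-FLI1mut and EWS(YS37)-FLI1 in the second. PSMB9 over PSMB6 in TPM did not peak there. Its mean was 0.0102 in 24 h LY, 0.00649 in EWS-FLI1 and 0.00706 in 6 h LY. It was 0.0165 in EWS(YS37)-FLI1, 0.0174 in EWS-FLI1mut and 0.0123 in mCherry. The immunoproteasome subunit stayed the minor one in every library.

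Untreated cells with EWS-FLI1 had lower levels of many proteasome genes than mCherry cells: 18 of 43 fell and none rose. The falls were spread over the particle, with 5 of 7 alpha subunits, 3 of 7 beta subunits, 2 of 6 ATPases, 2 of 4 other base subunits, 3 of 8 lid subunits, 2 of 4 assembly factors and 1 of 4 activators. They were small, with a median log2 fold change of -0.16 over the 43 genes against -0.02 over all genes tested, and 39 of the 43 values were below 0. The falling share was 41.9% of members, against 9.95% of all genes, while 11.1% of all genes rose. PSMB3, a structural beta subunit (ENSG00000277791, chr17:38752736-38764231, plus strand), had 58.9, 75.3 and 86.4 CPM in EWS-FLI1, against 83.0, 108 and 116 CPM in mCherry (log2 fold change -0.47 ± 0.14 (SE), adjusted p = 0.0175). PSME2 had 26.5, 28.8 and 29.1 CPM in EWS-FLI1, against 30.5, 37.3 and 35.3 CPM in mCherry (log2 fold change -0.29 ± 0.08 (SE), adjusted p = 0.0148). PSMA4, an alpha subunit, had 205, 193 and 201 CPM in EWS-FLI1, against 237, 252 and 239 CPM in mCherry (log2 fold change -0.28 ± 0.06 (SE), adjusted p = 0.00163). The PSMB3 libraries overlapped between the lines, and those of PSME2 and PSMA4 did not. The others that fell were PSMA1, PSMA2, PSMA5, PSMA6, PSMB1, PSMB4, PSMC3, PSMC5, PSMD1, PSMD2, PSMD11, PSMD12, PSMD13, PSMD10 and POMP, at -0.15 to -0.27. Without EWS-FLI1 replicate 1 the count was 7, without EWS-FLI1 replicate 3 it was 10, without mCherry replicate 2 it was 8 and without mCherry replicate 3 it was 9; PSMB3 and PSME2 were not called without EWS-FLI1 replicate 1, mCherry replicate 2 or mCherry replicate 3, and PSMB3 was then at -0.34, -0.42 and -0.36. With length offsets or in TPM 5 fell, and only PSMC5, PSMD2 and PSMD11 fell on all 6 scales. Among all 16786 genes tested, 657 fell with length offsets and 697 in TPM.

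In EWS-FLI1mut 5 members fell relative to mCherry and none rose (11.6%, against 3.62% of all genes falling and 3.53% rising). The median was -0.10, against 0.00 over all genes. PSMD12 had 81.8, 79.0 and 73.8 CPM in EWS-FLI1mut, against 98.9, 97.1 and 88.0 CPM in mCherry (log2 fold change -0.28 ± 0.06 (SE), adjusted p = 0.0103). PSMA2 had 168, 158 and 159.8 CPM in EWS-FLI1mut, against 181, 204 and 184.5 CPM in mCherry (log2 fold change -0.23 ± 0.06 (SE), adjusted p = 0.0225). PSMD11 had 153, 143 and 143 CPM in EWS-FLI1mut, against 174, 168 and 166 CPM in mCherry (log2 fold change -0.21 ± 0.05 (SE), adjusted p = 0.0095). No library of these genes overlapped between the lines, nor did those of PSMA4 (-0.21) and PSMA5 (-0.19), which also fell. The count was 2 without EWS-FLI1mut replicate 2, 1 without EWS-FLI1mut replicate 3, 3 without mCherry replicate 1 and 1 without mCherry replicate 2, and no member fell on all 6 scales. In EWS(YS37)-FLI1 3 members rose relative to mCherry and none fell (6.98%, against 11.5% of all genes rising and 10.2% falling), a share below that of all genes. ADRM1, the ubiquitin receptor, had 259, 248 and 264 CPM in EWS(YS37)-FLI1, against 218, 184.1 and 206 CPM in mCherry (log2 fold change 0.34 ± 0.06 (SE), adjusted p = 0.000137). PSMD8, a lid subunit, had 195.6, 191 and 204 CPM in EWS(YS37)-FLI1, against 162, 161 and 173 CPM in mCherry (log2 fold change 0.25 ± 0.06 (SE), adjusted p = 0.00317). PSMB7 had 151, 144 and 152 CPM in EWS(YS37)-FLI1, against 122, 135 and 132 CPM in mCherry (log2 fold change 0.20 ± 0.06 (SE), adjusted p = 0.017). ADRM1 and PSMD8 rose on all 6 scales, and the PSMB7 call was lost without EWS(YS37)-FLI1 replicate 1 (0.19, adjusted p = 0.0512), EWS(YS37)-FLI1 replicate 3 (0.19, adjusted p = 0.0658) or mCherry replicate 1 (0.16, adjusted p = 0.0923). The 3 comparisons with mCherry share its 3 libraries.

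The widest difference among untreated lines was between EWS-FLI1 and EWS(YS37)-FLI1: 25 of 43 members fell and none rose in EWS-FLI1 (58.1%, against 16.3% of all genes falling and 14.8% rising). All 7 beta subunits, 4 of 7 alpha subunits, 4 of 6 ATPases, 3 of 4 other base subunits, 4 of 8 lid subunits and 3 of 4 activators fell, and none of the 4 assembly factors and none of the 3 immunoproteasome subunits was called. The median was -0.21, against -0.02 over all genes, and 41 of 43 values were below 0. PSMB3 had 58.9, 75.3 and 86.4 CPM in EWS-FLI1, against 109.5, 122 and 86.4 CPM in EWS(YS37)-FLI1 (log2 fold change -0.53 ± 0.14 (SE), adjusted p = 0.00533). PSMA1 had 104, 105 and 109 CPM in EWS-FLI1, against 137, 141 and 142 CPM in EWS(YS37)-FLI1 (log2 fold change -0.40 ± 0.06 (SE), adjusted p = 4.21e-05). PSME2 had 26.5, 28.8 and 29.1 CPM in EWS-FLI1, against 34.5, 37.4 and 38.2 CPM in EWS(YS37)-FLI1 (log2 fold change -0.39 ± 0.08 (SE), adjusted p = 0.000911). PSMB3 and PSMB6 had overlapping libraries though they were called. The comparisons of untreated EWS-FLI1 with mCherry, EWS(YS37)-FLI1, EWS-FLI1mut, 6 h LY and 24 h LY share the same EWS-FLI1 libraries. Calls that recur among them, such as those of PSMB3 and PSME2, are therefore not separate support. Without EWS-FLI1 replicate 1 the count was 16, and the PSMB3 call was lost without EWS(YS37)-FLI1 replicate 2 (-0.39, adjusted p = 0.0531). With length offsets 12 fell and in TPM 9, and PSMA1, PSMA6, PSMB7, PSMC5, ADRM1, PSMD8, PSMD11, PSME2 and PSME3 fell on all 6 scales. Among all 16786 genes tested, 1458 fell with length offsets and 1139 in TPM. FLI1 itself was at 265, 232 and 245 CPM in EWS-FLI1 and 1001, 987 and 1069 CPM in EWS(YS37)-FLI1, and the part of the construct's level in these differences was not tested.

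EWS(YS37)-FLI1 was also above EWS-FLI1mut in 15 members and below it in 1 (34.9% and 2.33%, against 14.5% and 12.7% of all genes), with a median of 0.14 against -0.01 over all genes. PSMB10 had 13.7, 12.3 and 17.2 CPM in EWS(YS37)-FLI1, against 10.6, 9.43 and 10.9 CPM in EWS-FLI1mut (log2 fold change 0.48 ± 0.14 (SE), adjusted p = 0.0167). PSME3, the nuclear activator, had 191, 179 and 194 CPM in EWS(YS37)-FLI1, against 156, 150.3 and 149 CPM in EWS-FLI1mut (log2 fold change 0.30 ± 0.05 (SE), adjusted p = 0.000101). PSMA1 had 137, 141 and 142 CPM in EWS(YS37)-FLI1, against 112, 118 and 115 CPM in EWS-FLI1mut (log2 fold change 0.29 ± 0.06 (SE), adjusted p = 0.00155). The gene that fell was the ATPase PSMC2, with 106, 111 and 115 CPM in EWS(YS37)-FLI1, against 120.4, 129.7 and 129 CPM in EWS-FLI1mut (log2 fold change -0.19 ± 0.05 (SE), adjusted p = 0.0124). The libraries of PSMB10, PSME3, PSMA1 and PSMC2 did not overlap between the lines, but the margins were narrow for PSMB10. The others that rose were PSMA2, PSMA5, PSMA6, PSMB2, PSMB5, PSMC5, PSMD2, ADRM1, PSMD7, PSMD8, PSMD11 and PSMD12, by 0.15 to 0.25. PSMB10 was not called without EWS(YS37)-FLI1 replicate 3 (0.33, adjusted p = 0.141) or EWS-FLI1mut replicate 2 (0.41, adjusted p = 0.0788), nor PSMC2 without EWS(YS37)-FLI1 replicate 1 (-0.15, adjusted p = 0.0841), EWS-FLI1mut replicate 2 (-0.17, adjusted p = 0.0591) or EWS-FLI1mut replicate 3 (-0.17, adjusted p = 0.0519). With length offsets 7 rose, in TPM 1, and PSMD8 was the member that rose on all 6 scales. Among all 16786 genes tested, 1464 rose with length offsets and 807 in TPM.

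EWS-FLI1 and EWS-FLI1mut were close: 3 members fell and none rose in EWS-FLI1 (6.98%, against 7.51% of all genes falling and 8.78% rising), with medians of -0.06 in the members and -0.02 in all genes. PSMB3 had 58.9, 75.3 and 86.4 CPM in EWS-FLI1, against 107, 106 and 81.9 CPM in EWS-FLI1mut (log2 fold change -0.42 ± 0.14 (SE), adjusted p = 0.0438). PSME2 had 26.5, 28.8 and 29.1 CPM in EWS-FLI1, against 33.0, 31.2 and 36.0 CPM in EWS-FLI1mut (log2 fold change -0.25 ± 0.08 (SE), adjusted p = 0.0418). PSMC3 had 256, 278 and 280.4 CPM in EWS-FLI1, against 291, 304 and 311 CPM in EWS-FLI1mut (log2 fold change -0.16 ± 0.05 (SE), adjusted p = 0.0272). The share of falling members was near that of all genes, and the PSMB3 libraries overlapped. No count was above 1 when any single library of either line was left out: none fell without EWS-FLI1 replicate 1 or 2, and 1 fell without EWS-FLI1 replicate 3 or without EWS-FLI1mut replicate 1, 2 or 3. Without EWS-FLI1 replicate 1 PSMB10, not called with all libraries, rose (0.46, adjusted p = 0.0399), and without EWS-FLI1 replicate 3 PSME4 rose (0.24, adjusted p = 0.0179).

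Beside the members, 8 genes that regulate proteasome genes or respond with them were followed, and 6 rose and 1 fell at 6 h of LY (31.6% of all genes rose and 33.3% fell). SQSTM1, a ubiquitin-binding autophagy receptor and NFE2L2 target, had 949, 933 and 902 CPM in 6 h LY, against 231, 243 and 244 CPM in untreated EWS-FLI1, a log2 fold change of 1.95 ± 0.06 (SE, adjusted p = 4.99e-18). MAFG, a small MAF protein, had 294, 285 and 277 CPM in 6 h LY, against 86.6, 84.4 and 80.9 CPM in untreated EWS-FLI1, a log2 fold change of 1.76 ± 0.07 (SE, adjusted p = 1.51e-15). Both were higher in every treated library than in every untreated one. NFE2L2 rose by 0.79, the protease DDI2 by 0.62, the proteasome import factor AKIRIN2 by 0.21 and HSF1 by 0.22. NGLY1, the enzyme that strips sugars from NFE2L1, had 23.6, 19.4 and 22.1 CPM in 6 h LY, against 37.4, 39.8 and 40.3 CPM in untreated EWS-FLI1, a log2 fold change of -0.85 ± 0.07 (SE, adjusted p = 4.59e-10). NFE2L1 itself was not called, at -0.10 ± 0.06 (SE, adjusted p = 0.14). At 24 h of LY 2 of the 8 rose (SQSTM1 1.15, MAFG 0.30) and 4 fell (NFE2L1 -0.16, NFE2L2 -0.41, AKIRIN2 -0.49 and DDI2 -0.31; 23.3% of all genes rose and 24.6% fell), and between 6 h and 24 h 1 rose and 5 fell (32.6% of all genes rose and 30.3% fell). NFE2L1 also fell in EWS-FLI1 relative to mCherry (-0.29), to EWS-FLI1mut (-0.24) and to EWS(YS37)-FLI1 (-0.39), comparisons that share the EWS-FLI1 libraries. In the untreated comparisons, rising and falling genes of the 8 numbered 1 and 1 for EWS-FLI1 against mCherry, 1 and 2 for EWS-FLI1 against EWS-FLI1mut, 1 and 3 for EWS-FLI1 against EWS(YS37)-FLI1, 3 and 0 for EWS(YS37)-FLI1 against mCherry, 1 and 0 for EWS(YS37)-FLI1 against EWS-FLI1mut, and 0 and 0 for EWS-FLI1mut against mCherry. Over all genes the rising and falling shares in these 6 comparisons, in the same order, were 11.1% and 9.95%, 8.78% and 7.51%, 14.8% and 16.3%, 11.5% and 10.2%, 14.5% and 12.7% and 3.53% and 3.62%, and they apply to the 3 lists that follow too.

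Of 10 other assembly factors, inhibitors and small subunits, 4 rose and 3 fell at 6 h of LY, shares near those of all genes (31.6% of all genes rose and 33.3% fell). The small lid subunit SEM1 rose by 0.50, the inhibitor PSMF1 by 0.38, the core chaperone PSMG4 by 0.52 and TXNL1 by 0.32. PSMG1, a chaperone of the alpha ring, had 6.36, 4.36 and 4.03 CPM in 6 h LY, against 12.2, 10.7 and 11.5 CPM in untreated EWS-FLI1, a log2 fold change of -1.22 ± 0.17 (SE, adjusted p = 1.05e-06), and its partner PSMG2 was at -0.16. At 24 h 5 of the 10 rose and none fell, PAAF1 most (0.75; 23.3% of all genes rose and 24.6% fell), and between 6 h and 24 h 4 rose and 2 fell (32.6% of all genes rose and 30.3% fell). In EWS-FLI1 1 rose and 3 fell relative to mCherry (PSMG3 -0.40, PAAF1 -0.35 and PSMG1 -0.43), none rose and 2 fell relative to EWS-FLI1mut, and 1 rose and 3 fell relative to EWS(YS37)-FLI1. EWS-FLI1mut had 1 fall relative to mCherry, EWS(YS37)-FLI1 had 1 rise relative to mCherry, and EWS(YS37)-FLI1 had 2 rises and 1 fall relative to EWS-FLI1mut.

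Of 19 genes for ubiquitin supply, shuttling and removal, 12 rose and 3 fell at 6 h of LY (31.6% of all genes rose and 33.3% fell). ZFAND2A, a stress-induced partner of the proteasome, rose by 1.91, and the ubiquitin gene RPS27A rose by 0.71, while the ubiquitin gene UBB fell by 0.18 on the log2 scale. The deubiquitinases of the proteasome USP14 and UCHL5 rose by 0.41 and 0.40. At 24 h 4 rose and 8 fell (23.3% of all genes rose and 24.6% fell), and between 6 h and 24 h 1 rose and 14 fell (32.6% of all genes rose and 30.3% fell). Among untreated lines 9 rose and 1 fell in EWS(YS37)-FLI1 relative to EWS-FLI1mut, 3 and 1 relative to mCherry, and in EWS-FLI1 4 and 0 relative to mCherry, 4 and 1 relative to EWS-FLI1mut and 1 and 5 relative to EWS(YS37)-FLI1, with none called in EWS-FLI1mut against mCherry.

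Of 11 genes that work with the immunoproteasome in antigen processing, 7 rose and 1 fell at 6 h of LY (31.6% of all genes rose and 33.3% fell). TAPBP, which loads peptides, rose by 1.22, the interferon-induced factor IRF1 by 1.09 and B2M, the light chain of class I molecules, by 0.65. At 24 h 5 rose, among them B2M (0.48), TAPBP (0.63) and the peptide transporter TAP1 (0.51), and 4 fell, CALR most (-0.74; 23.3% of all genes rose and 24.6% fell), and between 6 h and 24 h 2 rose and 6 fell (32.6% of all genes rose and 30.3% fell). TAP1, TAPBP and B2M have copy transcripts, and with the copies added they had 4.19, 1.95 and 1.36 times their own counts. In EWS-FLI1 2 rose and 1 fell relative to mCherry, 1 rose and none fell relative to EWS-FLI1mut, and 1 rose and 2 fell relative to EWS(YS37)-FLI1. EWS-FLI1mut had 2 falls relative to mCherry, EWS(YS37)-FLI1 had 3 rises and 1 fall relative to mCherry, and 5 rises and 1 fall relative to EWS-FLI1mut.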

How the data were processed

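Polyadenylated RNA was measured in 18 libraries, 3 in each of 6 groups named by the titles. Per the submitters' processing notes, CASAVA and kallisto 0.46 were used with build hg38. The transcript set and the use of strand are not given in the sources used here, and the labels name VAHTS and SMARTER library kits without tying them to libraries. The deposited tables give, per the file headers, estimated counts and TPM for each transcript. Both were summed per gene by Ensembl transcript ID in GENCODE 29, and the counts were rounded; 169797 of 188753 transcripts matched, and 2.59 to 2.74% of counts did not.

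Genes kept by filterByExpr were scaled by TMM and tested with edgeR's quasi-likelihood test (edgeR 4.0.16, limma 3.58.1, R 4.3.3; summaries in Python 3.11.15 and pandas 2.3.3) in 1 fit of 18 libraries with 12 residual degrees of freedom, with Benjamini-Hochberg adjustment over 16786 genes. A standard error is the log2 fold change over the root of F, and the biological coefficient of variation was 8.77%. Transcript classes were tested with edgeR's diffSpliceDGE. Stretches of 31 bases shared with transcripts of other genes were counted: 20 members shared none, and 13 shared over 10%, so the counts of those 13 are uncertain. They were PSMA6 (85.9%), PSMB10 (77.9%), PSMC1 (76.2%), PSMA2 (51.6%), PSMD9 (51.6%), PSMA1 (50.4%) and PSMC6 (46.2%). The rest were PSME2 (39.8%), PSMD4 (39.2%), PSMD2 (19.3%), PSMD10 (13.6%), PSMD8 (12.4%) and PSMD12 (11.5%). Alternatives were DESeq2 1.42.0, RLE factors, no scaling factors, length offsets, limma on log2(TPM + 1), no filter, the compared groups alone, a replicate block, added counts of 32 pseudogenes, and each library left out; copy transcripts and protein-coding transcripts only were added after the data were seen. The scripts were tested on simulated data. The members and the lists (regulators, other assembly factors, ubiquitin supply, antigen processing and cell type markers) were chosen with earlier results of these data known, and some genes of these lists are not reported here. Values in every library are given for PSMB5 to PSMB10 and, in each comparison, for up to 3 rising and 3 falling called members with the largest change, among those with a mean of 5 CPM or more in the group where they are higher.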

Additional observations from a re-analysis of the deposited data

How the results depend on the processing

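Counts of called members depended most on the scale. For EWS-FLI1 against mCherry 5 members fell with length offsets and 5 in limma on log2(TPM + 1). Over all 16786 genes tested, 657 and 697 fell there. For EWS-FLI1mut against mCherry 2 fell with length offsets, 1 in TPM, 2 without scaling factors and 1 with protein-coding transcripts only. In the same order, 164, 87, 416 and 416 of all genes fell, the last out of 14771. For EWS(YS37)-FLI1 against mCherry 1 fell without scaling factors, beside 2138 of all genes. For EWS-FLI1 against EWS-FLI1mut 1 fell with RLE factors, 0 with length offsets, 6 without scaling factors, 1 with only the compared groups and 1 with protein-coding transcripts only. In the same order, 1170, 444, 1729, 1315 (of 15676) and 980 (of 14771) of all genes fell. For EWS-FLI1 against EWS(YS37)-FLI1 12 fell with length offsets and 9 in TPM, beside 1458 and 1139 of all genes. For EWS(YS37)-FLI1 against EWS-FLI1mut 7 rose with length offsets, 1 in TPM, 9 without scaling factors and 9 with protein-coding transcripts only, and 0 fell with length offsets. In the same order, 1464, 807, 1702 and 1880 (of 14771) of all genes rose, and 1109 fell with length offsets. At 6 h of LY 12 rose and 11 fell in TPM, beside 2480 and 6974 of all genes. Without scaling factors 7 fell at 6 h, beside 7450 of all genes. At 24 h of LY 5 rose in TPM, beside 2271 of all genes. Between 6 h and 24 h 3 rose with DESeq2, 3 with RLE factors, 3 with length offsets and 9 without scaling factors, and 19 fell in TPM and 21 without scaling factors. In the same order, 5186, 5207, 4412 and 7665 of all genes rose, and 2619 and 3228 fell. With copy transcripts PSMB8 over PSMB5 was 0.356. The cause of these shifts was not tested beyond the medians of all genes given with the scales.

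Leaving out 1 library at a time gave 7 to 13 falling for EWS-FLI1 against mCherry, 1 to 5 falling for EWS-FLI1mut against mCherry, 2 to 4 rising for EWS(YS37)-FLI1 against mCherry, 0 to 1 rising and 0 to 1 falling for EWS-FLI1 against EWS-FLI1mut, 16 to 23 falling for EWS-FLI1 against EWS(YS37)-FLI1, 10 to 14 rising and 0 to 1 falling for EWS(YS37)-FLI1 against EWS-FLI1mut, 32 to 34 rising and 2 to 3 falling at 6 h of LY, 7 to 9 rising and 6 to 12 falling at 24 h of LY, and 2 to 4 rising and 30 to 32 falling between 6 h and 24 h.

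Of called members, 8 turned sign in TPM, 3 without scaling factors and 1 with protein-coding transcripts only at 6 h of LY, and 7 in TPM and 6 without scaling factors between 6 h and 24 h; none of those called in the other 7 comparisons turned on the 6 scales. In the catalytic subunits, at 6 h of LY PSMB5 was at -0.17 (adjusted p = 0.0107) in TPM and -0.00754 without scaling factors, PSMB6 at -0.0444 in TPM, and PSMB7 at -0.00841 in TPM and -0.00225 without scaling factors. Between 6 h and 24 h PSMB5 was at 0.0223 in TPM and 0.0132 without scaling factors, and PSMB7 at 0.16 (adjusted p = 0.0421) in TPM and 0.24 (adjusted p = 0.00102) without scaling factors. Over the members with values in every library, 1343 alternatives kept the direction and the call, 109 lost the call, 17 gained one and 9 turned.

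Replicate numbers did not pair the samples: same-numbered deviations correlated at -0.0377 to 0.0621. With the replicate number as a block 18 fell for EWS-FLI1 against mCherry, 6 for EWS-FLI1mut against mCherry, 26 for EWS-FLI1 against EWS(YS37)-FLI1 and 3 for EWS-FLI1 against EWS-FLI1mut; 3 rose for EWS(YS37)-FLI1 against mCherry; 15 rose and 1 fell for EWS(YS37)-FLI1 against EWS-FLI1mut; 33 rose and 3 fell at 6 h of LY, 9 rose and 11 fell at 24 h, and 4 rose and 32 fell between them. The call lost among members named was PSMB8 between 6 h and 24 h (0.38, adjusted p = 0.0546). Depth limits PSMB9, the member with fewest counts.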
